A study of Homo sapiens with 4 samples.

Results

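Bone morphogenetic proteins (BMPs) are secreted ligands that bind pairs of type I and type II receptors on the cell surface. The receptors phosphorylate SMAD1, SMAD5 and SMAD9, which join SMAD4 and enter the nucleus. Among the genes they switch on are the ID genes, which block basic helix-loop-helix transcription factors, and SMAD6 and SMAD7, the inhibitory SMADs that feed back on the receptors. Secreted antagonists such as gremlin bind the ligands and keep them from the receptors. In glioblastoma the pathway is known for its effect on stem-like cells, which BMP ligands can push toward an astrocyte-like state.

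The 10 genes described here are 2 ligands (BMP2, BMP4), 2 receptors (BMPR1A, BMPR2), the antagonist GREM1, the inhibitory SMADs SMAD6 and SMAD7, and the targets ID1, ID2 and ID3. They were found by gene symbol among the 29387 genes listed in all 4 raw count tables. The set was chosen by name, with the differences between invasive and control libraries in counts per 1e6 counts (CPM) already known. Those differences are therefore given for the 10 genes as a description. Nothing is read from how a test over all genes called them. All 10 were listed, and 9 passed the filter on low counts. BMP4 did not, with 0 counts in each library.

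The libraries came from U87MG, an established human glioblastoma line, with no genetic change or drug named for any group. Parental cells were placed for 1 week on organotypic brain slices (living brain sections), in a neural stem cell medium to which the growth factors FGF and EGF were added. Cells that had invaded (highly invasive) and cells that had not (poorly invasive control) were then collected and grown in culture for 3 to 5 days. There were 2 invasive populations, which the labels call clones, and 2 controls, with 1 mRNA library from each population. Control 1 serves as the control of invasive 1 and control 2 that of invasive 2, so each pair has 1 library on each side. The labels describe the invasive populations as independently derived.

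Total counts ran from 13829871 to 17817756 per library. At this depth a count of 0 allows up to 3 counts, or 0.168 to 0.217 CPM depending on the library (counting error only). The mesenchymal markers VIM and CD44 had at least 24032 counts in every library. Of other markers used for glioma cells, NES had 217 to 739 counts and OLIG2 9 to 31, while GFAP, S100B and SOX2 had at most 4. Of 4 neuron markers, GAD1 had 212 to 300 counts and SYT1 74 to 134, while RBFOX3 and SLC17A7 had at most 2. CDKN2A, a gene deleted in U87MG, had 0 to 2 counts. Of 4 osteoblast markers, none passed 2 CPM in any library. Of 5 leukocyte and microglial genes, PTPRC, P2RY12, CX3CR1 and AIF1 (listed for pair 1 only) had at most 2 counts, while CSF1R had 140 to 379. In bulk RNA a smaller share of expressing cells and less RNA per cell cannot be told apart.

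The DNA just upstream of 3 of these genes is shown because they behaved differently: SMAD6 and GREM1 were higher in both invasive libraries, and ID1 was level. Each sequence is the 250 bases before the RefSeq transcript start (GRCh38.p14, 5′ to 3′ on the gene's strand). Capitals mark matches, on either strand, to 3 motifs linked to SMAD binding: the GC-rich element GGCGCC, the short SMAD box CAGAC, and the palindrome GTCTAGAC. None of the 3 motifs overlapped another in these windows. SMAD6 lies at chr15:66701986-66702235 (plus strand), GREM1 (the first of 2 listed starts) at chr15:32717754-32718003 (plus strand) and ID1 at chr20:31605039-31605288 (plus strand).
SMAD6: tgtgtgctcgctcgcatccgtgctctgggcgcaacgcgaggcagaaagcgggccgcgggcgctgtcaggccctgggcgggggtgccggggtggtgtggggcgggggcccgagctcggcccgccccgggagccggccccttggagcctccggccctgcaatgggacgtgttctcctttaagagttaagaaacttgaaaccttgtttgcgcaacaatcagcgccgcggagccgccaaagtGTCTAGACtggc
GREM1: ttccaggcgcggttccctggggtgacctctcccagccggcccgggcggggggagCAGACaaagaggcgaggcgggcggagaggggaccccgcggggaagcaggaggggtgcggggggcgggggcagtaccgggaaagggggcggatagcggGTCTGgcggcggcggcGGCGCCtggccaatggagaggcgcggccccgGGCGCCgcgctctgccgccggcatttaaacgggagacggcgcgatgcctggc
ID1: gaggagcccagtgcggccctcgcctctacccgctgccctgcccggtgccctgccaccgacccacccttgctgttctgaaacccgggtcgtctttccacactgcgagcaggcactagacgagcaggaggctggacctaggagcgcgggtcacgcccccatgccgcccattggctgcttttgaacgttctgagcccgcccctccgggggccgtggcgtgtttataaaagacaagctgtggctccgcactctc

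The SMAD6 window held the 8-base palindrome GTCTAGAC once, starting 12 bases before the transcript start, and neither of the shorter motifs. That palindrome occurred in 64 of 35116 upstream windows of the same length in the RefSeq table (0.182%). GREM1 held GGCGCC 2 times and CAGAC 2 times. ID1 held none of the 3. ID2, higher in the invasive library of both pairs, also held none. BMP4, with no counts, held the GC-rich element at 1 of its 3 starts and CAGAC at some of them. The second GREM1 start held the short SMAD box once and the GC-rich element not at all. BMPR2 held GGCGCC once and CAGAC 2 times, ID3 held CAGAC once, and BMPR1A held none. SMAD7, with opposite signs in the pairs, held CAGAC at some of its 3 starts and neither of the other motifs. GGCGCC was present in 16.4% of all windows and CAGAC in 38.0%. Of the 10 genes, 9 had at least 1 window in the table, 14 windows in all. A match describes letters and does not show binding, and the windows are too short to include distant control regions.

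Among the ligands, BMP2, a ligand that drives bone and neural differentiation, was detected at low levels (chromosome 20, 6767664 to 6780280, plus strand, GRCh38). In pair 1 it had 5.22 CPM in the control and 5.75 in the invasive library, and in pair 2 it had 12.9 and 9.54, from 89 to 199 counts. The pair 2 libraries were both above the pair 1 libraries, and within each pair the groups differed in opposite directions. The log2 ratio of invasive to control was 0.14 in pair 1 (95% counting interval −0.30 to 0.58) and −0.43 in pair 2 (−0.76 to −0.11). In control 2, where BMP2 was highest, the inflammatory cytokine gene IL1B (chosen after its values were seen) had 572 CPM against 12.1 to 29.6 in the other libraries. Its part in the BMP2 values was not tested. In fits that left out 1 library (no pair block, 3 libraries) the log2 fold change of BMP2 was 0.51 without control 2 and −0.76 without control 1.

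BMP4, a ligand used to force differentiation of glioblastoma stem-like cells, gave no count in any library. BMP8A and GDF7 were likewise at 0 in all 4. BMP3, BMP5, BMP7, BMP8B and GDF6 had at most 6 counts in a library. Besides BMP2, only GDF5 and BMP6 of the 14 ligands listed passed the filter on low counts. GDF5, a ligand of joint and tendon development, had 13.3 and 16.4 CPM in control 1 and invasive 1, and 20.3 and 15.8 CPM in control 2 and invasive 2. BMP6 had 1.52 and 2.00 CPM in pair 1 and 4.01 and 1.66 CPM in pair 2, control first. For BMP2, BMP6 and GDF5 alike, control 2 had the highest level of the 4 libraries. Neither GDF5 nor BMP6 passed the test of invasive against control (edgeR adjusted p = 0.913 and 0.601).

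The receptors differed in how even they were over the libraries. BMPR1A, a type I receptor kinase, had 36.4 CPM in control 1 and 35.1 in control 2, against 33.7 in invasive 1 and 32.4 in invasive 2. Both invasive values lay just below both controls, by log2 ratios of −0.11 and −0.12 whose counting intervals include 0 (−0.28 to 0.06 and −0.30 to 0.07). BMPR2, the type II receptor, had 68.7 and 64.0 CPM in controls 1 and 2, against 72.0 and 86.3 in invasive 1 and 2. Both invasive values were above both controls, but nearly all of the difference came from pair 2 (log2 ratios 0.07 and 0.43). Of the other receptors, ACVR1, the most abundant type I receptor per length in this list, had 64.1 to 67.5 CPM over the 4 libraries. BMPR1B had 8.08 to 12.0 CPM, ACVR2A 7.82 to 9.39 and ACVR2B 4.04 to 6.80 (log2 ratio 0.32 in pair 1 and −0.58 in pair 2), and ACVRL1, an endothelial receptor, at most 2 counts.

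GREM1, which encodes the BMP antagonist gremlin 1, was the most abundant of the 10 in CPM (chromosome 15, 32717974 to 32745107, plus strand). In the controls it had 404 and 377 CPM, and in the invasive libraries 583 (pair 1) and 1040 (pair 2). The controls were close together, at 390 ± 19.1 (SD, n = 2), while the invasive libraries spread widely, at 812 ± 323. The ratio of invasive to control was 1.45 in pair 1 and 2.76 in pair 2. The fitted log2 fold change over both pairs was 0.98 ± 0.27 (SE). It was 0.56 without invasive 2 and 1.39 without invasive 1. An antisense gene whose exons overlap GREM1 had 8 to 20 counts, far below the 5815 to 14388 of GREM1.

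SMAD6, which blocks BMP receptor signalling with some preference over that of TGF-beta, was higher to nearly the same extent in both invasive libraries (chromosome 15, 66702228 to 66782848, plus strand). In pair 1 it went from 45.2 CPM in the control to 85.9 in the invasive library, and in pair 2 from 36.6 to 73.9. The lowest invasive value was well above the highest control value, and the order of the pairs was the same in both groups. Control 2, the library with the high IL1B level given above, had the lowest value. Its part in the pair 2 ratio was not tested. The ratio of invasive to control was 1.90 in pair 1 and 2.02 in pair 2. The mean was 40.9 ± 6.07 CPM over the controls (SD, n = 2), and 79.9 ± 8.50 CPM over the invasive libraries (SD, n = 2). The fitted log2 fold change was 0.95 ± 0.10 (SE).

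SMAD7, the inhibitory SMAD that acts on both the BMP and the TGF-beta branch, did not share this pattern (chromosome 18, 48919853 to 48950711, minus strand). In pair 1 the control had 33.5 CPM and the invasive library 25.9, while in pair 2 they had 42.9 and 58.8. It was lower in the invasive library of pair 1 (log2 ratio −0.37, counting interval −0.56 to −0.19) and higher in that of pair 2 (0.46, 0.31 to 0.61). The fitted log2 fold change over both was 0.04 ± 0.23 (SE), and it was −0.58 without invasive 2 and 0.60 without invasive 1. The ratio of SMAD6 counts to SMAD7 counts in a library was 1.35 in control 1 against 3.31 in invasive 1, and 0.855 in control 2 against 1.26 in invasive 2. This ratio was higher in the invasive library of each pair, and invasive 2 was below control 1.

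**Figure D1:**
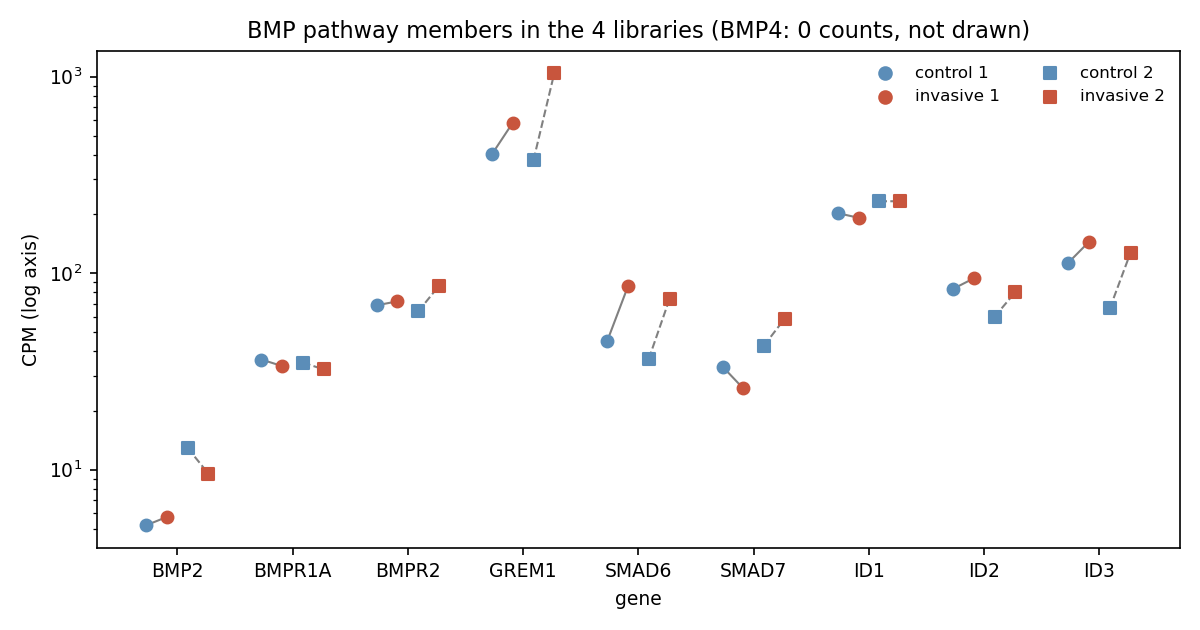
CPM (log axis) of 9 of the 10 genes in each library. Circles are pair 1 and squares pair 2, blue is control and red invasive, lines join a pair, and there is 1 library per point. SMAD6 is higher in both invasive libraries (85.9 and 73.9 CPM against 45.2 and 36.6), ID1 is level, and SMAD7 differs in opposite directions in the pairs.

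The ID genes, direct targets of the BMP SMADs, differed from each other. ID1 (chromosome 20, 31605283 to 31606515, plus strand) had 202 CPM in the control and 192 in the invasive library of pair 1, and 232 in both libraries of pair 2. Its groups overlapped, and its log2 ratios were −0.08 (counting interval −0.15 to −0.01) and 0.00 (−0.07 to 0.07). ID2 had 83.2 and 94.2 CPM in pair 1, control first, and 60.0 and 80.1 CPM in pair 2. It was higher in the invasive library of each pair, by ratios of 1.13 and 1.34, but control 1 was above invasive 2.

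ID3 (chromosome 1, 23557918 to 23559794, minus strand) had 113 CPM in the control and 145 in the invasive library of pair 1, and 66.2 and 127 in those of pair 2. Both invasive libraries were above both controls, with ratios of 1.28 in pair 1 and 1.92 in pair 2. Control 2 was the lowest of the 4 libraries. The fitted log2 fold change of ID3 was 0.63 ± 0.16 (SE), and it was 0.23 without control 2 and 1.03 without control 1. Control 2 is also the library with the high IL1B level given above, and its part in the ID3 ratio was not tested. The ratio of ID1 to ID3 counts was 1.79 and 1.32 in pair 1, control first, and 3.51 and 1.83 in pair 2, lower in the invasive library of each pair.

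Levels of different genes were compared per kb of exon, using the union of annotated exons in GENCODE 29 (GRCh38). This measure understates genes with long, rarely used exons. ID1 stood highest, at 155 to 189 CPM per kb over the 4 libraries. ID3 followed with 36.8 to 80.5, GREM1 with 25.8 to 71.2 and ID2 with 27.2 to 42.7, and these 3 ranges overlap. SMAD7 (5.15 to 11.7), SMAD6 (4.28 to 10.0) and BMPR2 (5.38 to 7.25) also overlapped one another. BMPR1A (2.84 to 3.19) and BMP2 (1.45 to 3.58) were lowest among the detected genes.

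**Figure D2:**
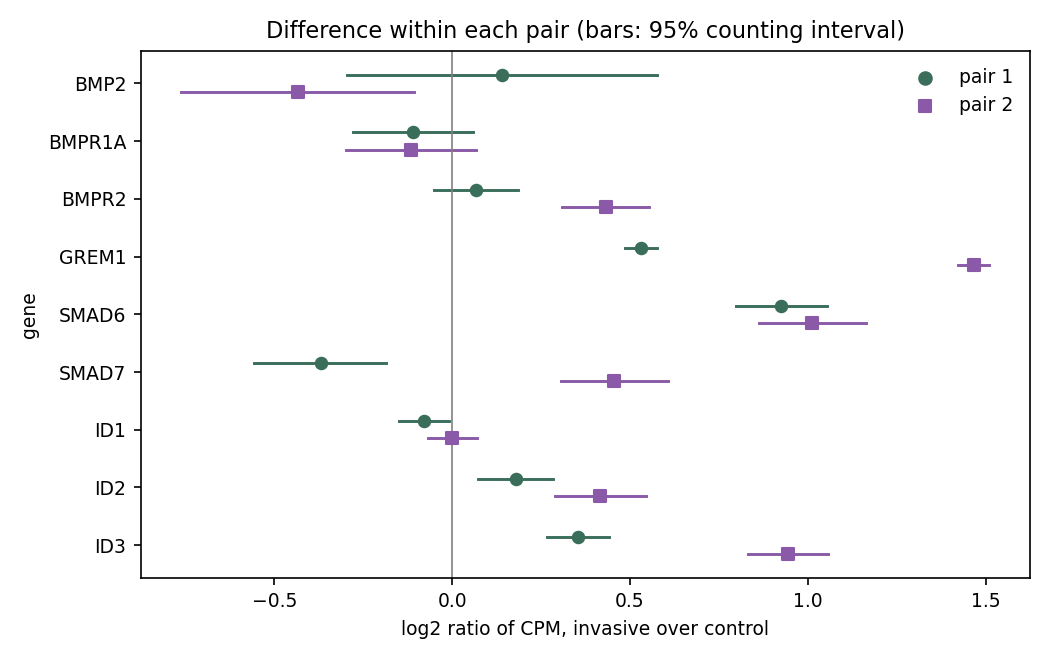
Log2 ratio of CPM, invasive over control, in pair 1 (circles) and pair 2 (squares) for 9 genes. Bars are 95% counting intervals and do not include variation between cultures. SMAD6 has nearly the same ratio in both pairs (0.93 and 1.01), GREM1 and ID3 are larger in pair 2, and SMAD7 lies on opposite sides of 0.

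A test of invasive against control was fitted over 14231 genes with the pair as a block, and 0.274% of them passed (edgeR quasi-likelihood test, Benjamini-Hochberg adjusted p under 0.05). The share called higher was 0.239%. Of the 9 genes that entered this test, SMAD6 was called higher and none was called lower. Because the set was chosen with this contrast known, nothing is read from that count or from the call of SMAD6. With no replicate block the log2 fold change of SMAD6 was 0.94, against 0.95 with it, and the call was lost. In the fits of 3 libraries, which have no block, the call was kept without control 1 (log2 fold change 1.11). It was lost without invasive 1, control 2 or invasive 2, where the log2 fold change was 0.82, 0.79 and 1.04. DESeq2, run on the same libraries, called 1.2% of genes and SMAD6 alone among the 10, which is no separate support.

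The groups did not overlap, with invasive above, in 4 of the 9 genes (BMPR2, GREM1, SMAD6 and ID3), against 23.7% of all genes tested. BMPR1A was the 1 gene with both invasive values below both controls, a pattern seen in 19.7% of all genes. At 1.5-fold or more, SMAD6 alone was higher in pair 1, where 9.07% of all genes were, and SMAD6, GREM1 and ID3 in pair 2, where 11% of all genes were. SMAD6 alone reached this size in both pairs, as did 3.98% of all genes. The pairs had opposite signs in 3 of the 9 (BMP2, SMAD7 and ID1), against 34.7% of all genes. Of these, SMAD7 alone had counting intervals that left out 0 in both pairs.

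The pair itself was tested in the same fit, a contrast that the choice of genes did not use. The raw counts listed 32100 genes in pair 1 and 33485 in pair 2. In this contrast, differences between the populations and differences in how the pairs were handled or processed cannot be told apart. Of the 9 genes, and of all 48 pathway genes described that were tested, 0 passed for pair 2 against pair 1 (edgeR adjusted p under 0.05), while 0.0984% of all genes did. DESeq2 also called 0 of the 48. At an unadjusted edgeR p under 0.05 there were 17 of the 48 (35.4%), against 2110 of 14231 genes (14.8%). The largest such difference among the 10 was that of BMP2, 1.02 ± 0.22 (SE) log2 units higher in pair 2 (edgeR adjusted p = 0.169). SMAD7 was 0.76 ± 0.23 higher in pair 2 (edgeR adjusted p = 0.266), and ID3 had −0.48 ± 0.16 and ID2 −0.35 ± 0.11 (edgeR adjusted p = 0.287 and 0.242).

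A further 60 genes of the pathway were described by role. This list too was chosen with earlier results of these data known, so its counts are a description. Of these, 39 passed the count filter, 15 had too few counts and 6 were not in all 4 tables. In the test of invasive against control, 0 of these 39 passed in either direction (edgeR adjusted p under 0.05). At an unadjusted edgeR p under 0.05, 10 were higher and 0 lower. Over all genes tested these shares were 9.82% higher and 8.41% lower. Both invasive values were above both controls in 16 of the 39 (23.7% of all genes tested) and below them in 3 (19.7% of all genes tested). The median log2 fold change of the 39 was 0.05, against 0.01 over all genes tested. DESeq2 called 2 of the 39 higher (ATOH8 and DLX5) and 0 lower.

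Of the 9 other secreted modulators described that were tested, none passed (lowest edgeR adjusted p = 0.0934). Log2 fold changes were above 0 in 8 of the 9, as in 7234 of all 14231 genes. Both invasive values were above both controls in 7 of the 9, as in 23.7% of all genes. These counts are a description, since the list was chosen with earlier results known. NBL1, the antagonist also called DAN, had 3.98 and 10.1 CPM in pair 1 and 2.46 and 6.07 CPM in pair 2, control first (log2 fold change 1.30 ± 0.23, edgeR adjusted p = 0.0934). Exons of NBL1 overlap a neighbouring gene and a readthrough transcript on the same strand, so its counts are uncertain. KCP, a chordin-like regulator, had 0.78 ± 0.23 (edgeR adjusted p = 0.175), and its exons overlap the abundant ATP6V1F on the other strand. CRIM1, a membrane protein that binds BMPs, was abundant, with 314 and 387 CPM in pair 1 and 228 and 391 CPM in pair 2, control first (0.52 ± 0.14, edgeR adjusted p = 0.158). CHRDL1 was the 1 modulator below 0, at −0.04 ± 0.27. The classical antagonists noggin (NOG) and chordin (CHRD) had 0 to 15 and 0 to 3 counts.

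Receptor partners were uneven. BAMBI, a decoy receptor without a kinase and a known BMP target, had 1.85 and 4.14 CPM in pair 1 and 1.94 and 10.4 CPM in pair 2, control first. These values rest on 33, 64, 30 and 144 counts, and the fold change of 1.80 ± 0.36 log2 units did not pass (edgeR adjusted p = 0.104). It was 1.10 without invasive 2 and 2.42 without invasive 1 (edgeR adjusted p = 0.650 and 0.0624). The co-receptor endoglin, ENG, had ratios of 1.34 and 1.38 in the pairs (log2 fold change 0.43 ± 0.10, edgeR adjusted p = 0.121). RGMB, a membrane-anchored co-receptor, had 0.08 ± 0.10.

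None of the other SMADs passed. SMAD1 and SMAD9, which carry the BMP signal, had log2 fold changes of 0.35 ± 0.16 and 0.46 ± 0.18 (edgeR adjusted p = 0.302 and 0.260). SMAD4, the shared partner, had −0.25 ± 0.14 and SMAD5 −0.15 ± 0.09. The groups did not overlap in any of the 4, with invasive above for SMAD1 and SMAD9 (23.7% of all genes) and below for SMAD4 and SMAD5 (19.7% of all genes). Of 7 intracellular regulators, 3 had log2 fold changes above 0, and the lowest edgeR adjusted p was 0.322, that of TOB1. The corepressor SKI had 0.24 ± 0.14, TOB1 0.37 ± 0.18 and the ubiquitin ligase SMURF2 −0.17 ± 0.10.

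Among other target genes, ATOH8, a helix-loop-helix factor induced by BMP signalling, had 39.3 and 86.4 CPM in pair 1, control first, and 19.7 and 70.0 CPM in pair 2. Both invasive values were above both controls, and control 2 was the lowest library, as for ID3. The log2 fold change of 1.45 ± 0.19 did not pass (edgeR adjusted p = 0.0758), while DESeq2 called it (DESeq2 adjusted p = 7e-07). Without control 2 it was 0.96 and without control 1 it was 1.98. DLX5, a homeobox gene of skeletal precursors, had 5.00 and 10.9 CPM in pair 1 and 1.75 and 9.98 CPM in pair 2, control first (log2 fold change 1.69 ± 0.37, edgeR adjusted p = 0.128, DESeq2 adjusted p = 0.0231). The log2 fold change of DLX5 was 1.03 without control 2, and 2.56 without control 1. The part of the high IL1B level of control 2 in the ATOH8 and DLX5 values was not tested. RUNX2, a bone transcription factor, had 0.19 ± 0.14, and ID4 had 0.01 ± 0.25. Of the E proteins that ID factors bind, TCF12 had 0.33 ± 0.09 (edgeR adjusted p = 0.160), while TCF3 and TCF4 had 0.00 ± 0.09 and 0.05 ± 0.13.

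**Figure D3:**
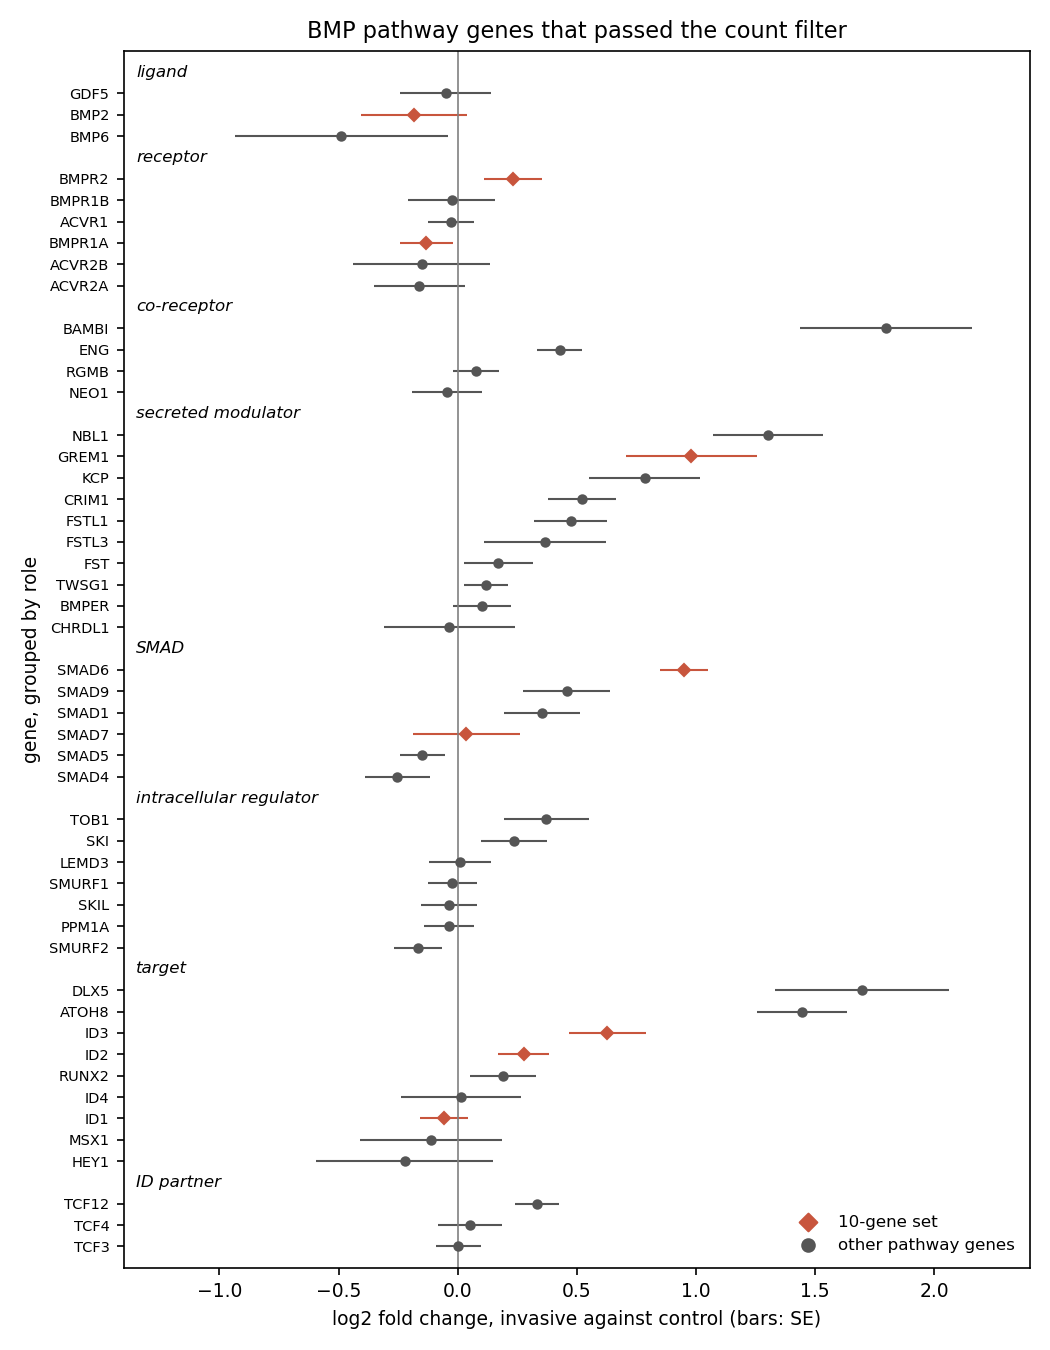
Log2 fold change (x axis, bars are SE) of 48 pathway genes that passed the count filter, invasive against control with the pair as a block, grouped by role. Red diamonds are the 10-gene set (9 drawn) and grey circles other genes. Among the grey circles BAMBI, DLX5 and ATOH8 lie farthest from 0, at 1.80, 1.69 and 1.45. None of the grey circles passed the edgeR test. The values of both sets are a description, since both were chosen with earlier results known.

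The protein-coding genes whose profile over the 4 libraries was most like that of SMAD6 were found by the root mean square difference of centred log2 CPM, among 11873 genes with a mean of at least 1 CPM. They were EFNB1 (0.04 log2 units), the collagen gene COL5A2 (0.05), VAMP1 (0.05), PCDHGA1 (0.06) and the collagen gene COL4A2 (0.06). EFNB1, an ephrin ligand, had 4.43 and 7.95 CPM in pair 1 and 3.37 and 6.87 CPM in pair 2, control first. PCDHGA1 shares exons with other protocadherin genes of its cluster, so its counts are uncertain. On the same measure the closest pathway genes were KCP (0.21, rank 193) and ID3 (0.23, rank 279), while SMAD7 ranked 11036 and ID1 7698. The measure rests on 4 libraries and describes likeness only.

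**Figure D4:**
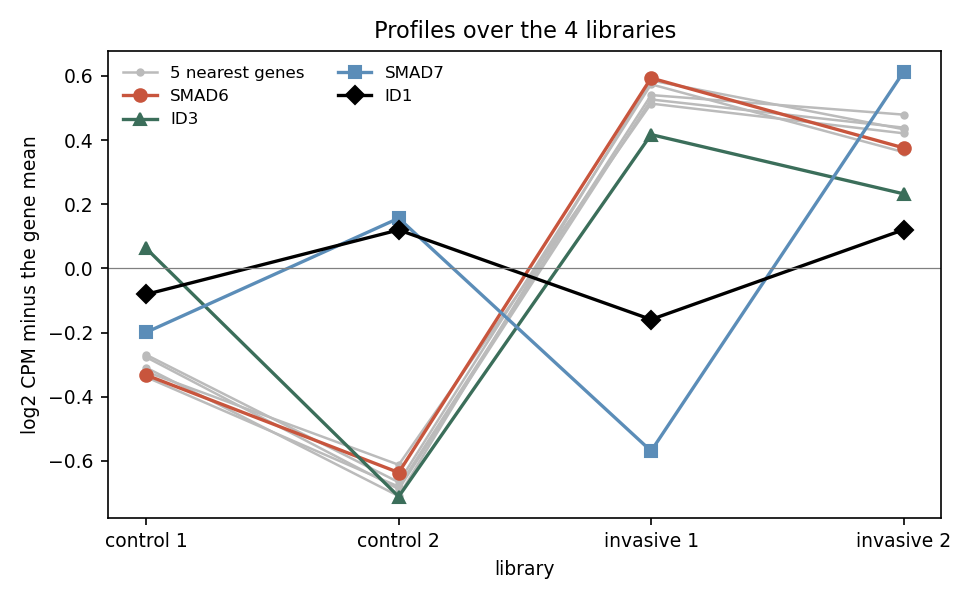
Log2 CPM minus each gene's mean over the 4 libraries (y axis) for SMAD6, its 5 nearest genes, ID3, SMAD7 and ID1. Lines join libraries of 1 gene and mark no order in time. SMAD6 and its nearest genes are high in both invasive libraries and lowest in control 2, ID3 shares the low point in control 2, and SMAD7 is lowest in invasive 1 and highest in invasive 2.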

How the data were processed

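Polyadenylated RNA of 4 U87MG libraries (2 control, 2 invasive) was sequenced from strand-specific libraries, per the labels' protocols. The deposited raw tables, so named in the file headers, give unnormalized whole read counts for each Ensembl gene. The submitters' processing notes name DESeq2, HTSeq, Bowtie, TopHat2 2.0.12 and bcl2fastq 1.8.4, with GRCh38 and without roles. The labels do not state if reads were counted by strand. The second deposited file of each library holds a normalized score that the authors rounded to whole numbers, by a method that the labels do not describe. Normalized files listed 32100 genes in pair 1 and 10252 in pair 2, and served in 1 alternative.

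CPM were raw counts per 1e6 counts of the library. Genes in all 4 tables (29387) were filtered with filterByExpr (minimum count 10, minimum total 15), leaving 14231. They were tested with edgeR 4.0.16 (quasi-likelihood F test, two-sided, TMM factors, robust prior, R 4.3.3, limma 3.58.1), pair as a block, Benjamini-Hochberg adjusted at 0.05. The fit has 1 residual degree of freedom and leans on a prior worth 5.45 in the median. With the robust setting the prior can differ between genes. SE is the log2 fold change divided by the root of F. In the reported fit, p-values set a difference against the disagreement between the pairs, part of which may be technical. Most of that variance estimate is borrowed from other genes. The block follows the series' design text. The pair differences of the control and invasive groups correlated across genes (r 0.283). Within pairs, ratios have exact 95% counting intervals and no test. Alternatives were DESeq2 1.42.0, other scaling, no filter, no block and leaving out each library. The fit was tested on simulated data.

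The genes and lists were chosen with earlier results of these data known. A gene of the pathway list is not reported here and is left out of the list's counts and plots, but not of the fit. Named pathway genes are those called, and per role up to 3 with the largest log2 fold change among genes with a mean of at least 1 CPM and the same sign in both pairs. Others were named for their low counts, or after their values were seen. For BMP10, BMP15, HFE2, CHRDL2 and CER1, listed for 1 pair only with 0 counts, and for GDF2, values were not analysed here.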

Additional observations from a re-analysis of the deposited data

Results flagged for a closer look

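In all, 3 pathway genes differed in opposite directions in the pairs, with both 95% counting intervals leaving out 0. The difference between pairs was not tested, since no residual degree of freedom remains and each pair has 1 library per group. SMAD7, the inhibitory SMAD, had a log2 ratio of −0.37 in pair 1 and 0.46 in pair 2. GDF5, a BMP-type ligand, had 0.30 in pair 1 (0.04 to 0.56) and −0.36 in pair 2 (−0.62 to −0.11). NEO1, a receptor for RGM co-receptors, had 0.22 (0.06 to 0.39) and −0.29 (−0.48 to −0.09), with 34.5, 40.2, 34.1 and 28.0 CPM in control 1, invasive 1, control 2 and invasive 2.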

How the results depend on the processing

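With no replicate block, 0 of the 10 genes and 0 of the other pathway genes were called, and the log2 fold change of SMAD6 was 0.94 against 0.95. That fit changed no other call among the named pathway genes. Outside the pathway, COL5A2 was called in the reported fit (edgeR adjusted p = 0.0337) but not with no replicate block (edgeR adjusted p = 0.202). COL5A2 was picked for its likeness to SMAD6 over the same libraries, so its call is no separate result. Without any filter on low counts, 3 of the 10 (SMAD6, GREM1, ID3) and 8 of the other pathway genes were called higher, and 10 pathway genes for pair 2 against pair 1. With library totals alone 4 other pathway genes were called higher and 1 for the pair, and with DESeq2 2 were called higher. Leaving out each library in turn gave 0 to 2 called higher of the 10 and 0 to 2 of the others, in fits with no block, where a lone library is assumed to vary like the other group. In these fits RGMB ran from −0.17 to 0.29 (−0.084 without control 1) and RUNX2 from −0.079 to 0.44. Over all genes, calls higher and lower were 34 and 5 in the reported fit. They were 2 and 0 with no replicate block, 142 and 29 with DESeq2, 80 and 9 with RLE factors, 368 and 91 with library totals alone, and 760 and 693 with no filter. The cause of these changes was not tested. The number of the 10 genes higher within a pair was 6 in pair 1 and 7 in pair 2, and moved by at most 1 with another prior count, TMM factors or the authors' scores. With 2 libraries per group, small differences such as those of the receptors are not resolved.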
